A study of Mus musculus with 6 samples.

Results

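Colon epithelial identity genes were read in SL4, a mouse CRC cell line, as a set of 37 symbols that covers epithelial adhesion, simple keratins, intestinal identity, epithelial regulators, tight junctions and desmosomes, and surface proteases. Each symbol matched 1 row of the deposited table of 53700 genes, and the genes were taken by name. The RNA-seq, of mRNA with poly-A tails, comprised 3 pLV-Control libraries, which the labels describe as SL4 lacking SEMA6A overexpression, and 3 pLV-SEMA6A libraries, which are SL4 stably overexpressing SEMA6A from a lentivirus. Both groups share the SL4 background, which the methods describe as expressing luciferase. The sources give no separately made pLV-SEMA6A line, and do not say whether libraries came from separate cultures, so SEMA6A and a difference between lines cannot be told apart, and the p-values measure the spread between these libraries, which may be technical. Values are TPM, a relative level scaled by transcript length that allows genes to be compared with each other but keeps no read depth. Sema6a itself followed the labels, with 98.7 to 118 TPM in the overexpressing libraries and 0 listed in the others.

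A colon epithelial cell is held to its neighbours by E-cadherin, claudins, occludin and desmosomes, is filled with keratins 8, 18, 19 and 20, and takes its intestinal identity from CDX and HNF4 factors. ESRP splicing factors and the GRHL and OVOL factors keep epithelial programmes on, while ZEB, SNAI and TWIST factors are known to repress them during EMT. E-cadherin is the epithelial marker that the study followed at the protein level. By immunofluorescence the study reported more E-cadherin and less vimentin in pLV-SEMA6A cells, and by RT-qPCR a reduction of EMT-related markers. The set shows how epithelial the RNA of the line is.

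Most of these genes were close to 0 in both groups. Calling a gene present where each of the 3 libraries of a group reached 1 TPM, 6 of the 37 genes (16.2%) were present, and the same 6 in both groups: Tjp1, Klf4, Klf5, Gata4, Elf3 and Gata6. Among all 21878 protein-coding genes of the table, 48.4% were present in both groups by the same criterion. The other 31 genes never exceeded 0.55 TPM in any library, whereas the 6 present genes never fell below 2.20 TPM, so no gene lay near the limit of 1 TPM. Of the 186 library values of the 31 genes, 115 were listed at 0 and 14 reached 0.2 TPM. Genes listed at 0 in all 6 libraries made up 13.5% of the 37, a smaller share than the 26.6% of protein-coding genes. Summed over these 31 genes, a library held 0.92 to 1.88 TPM.

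**Figure D1:**
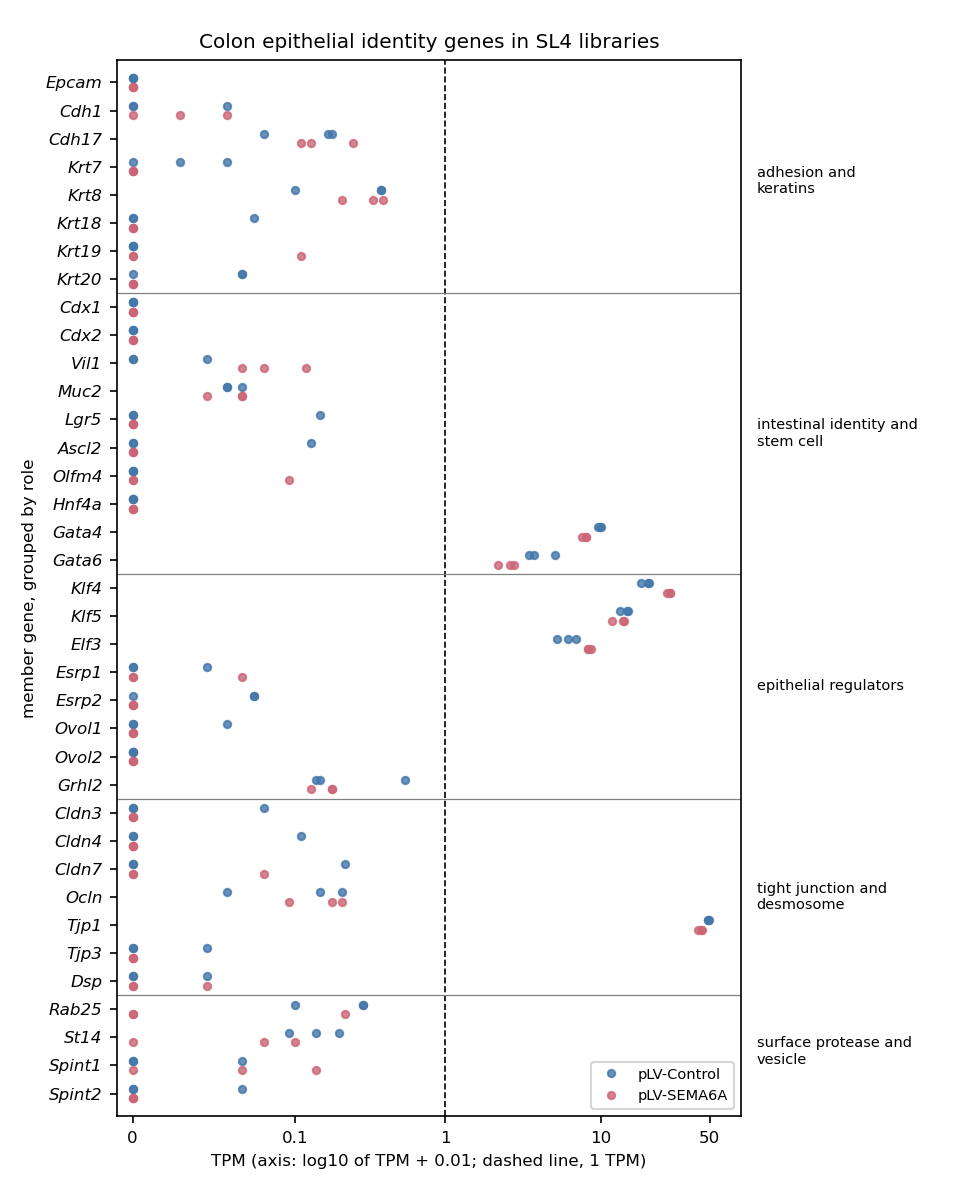
TPM of each of the 37 genes (rows, grouped by role) in the 3 pLV-Control and 3 pLV-SEMA6A libraries, on a log10 axis of TPM + 0.01 with a dashed line at 1 TPM; each point is a library. Tjp1, Klf4, Klf5, Gata4, Elf3 and Gata6 lie at 2.20 TPM or more, and the points of the other 31 genes lie at 0.55 TPM or less.

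A value of 0 in a table without counts can be a failed estimate. A level far from that of the other libraries also occurred in mt-Co3, a mitochondrial gene, with 0.33 TPM in pLV-SEMA6A replicate 2 where the remaining libraries had 141 to 450.1 TPM, and its cause was not tested. Of 30 genes that cells in general use, a list added after the values were seen, all 30 were present in both groups and the lowest value was 14.7 TPM, in Tfrc. With bulk RNA, fewer epithelial cells and less RNA per cell cannot be told apart.

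The sequence just before the transcription start is shown for the 3 present genes that have a RefSeq entry, Klf4, Elf3 and Tjp1, and for 3 genes near 0 that define simple epithelium, Epcam, Krt8 and Krt18. The 250 bases are written 5′ to 3′ on the strand of the gene, on build GRCm38.p6, at chr4:55532476-55532725 (minus strand) for Klf4, chr1:135258473-135258722 (minus) for Elf3, chr7:65371245-65371494 (minus) for Tjp1, chr17:87635729-87635978 (plus) for Epcam, chr15:102004343-102004592 (minus) for Krt8 and chr15:102027966-102028215 (plus) for Krt18. Capitals mark CACCTG or its reverse complement CAGGTG, an E-box that ZEB and SNAI factors are known to bind.
Klf4: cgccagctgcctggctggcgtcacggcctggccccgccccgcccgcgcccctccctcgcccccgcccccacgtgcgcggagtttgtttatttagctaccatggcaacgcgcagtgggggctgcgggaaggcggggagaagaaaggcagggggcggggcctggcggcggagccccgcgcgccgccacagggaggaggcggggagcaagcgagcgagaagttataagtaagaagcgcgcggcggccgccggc
Elf3: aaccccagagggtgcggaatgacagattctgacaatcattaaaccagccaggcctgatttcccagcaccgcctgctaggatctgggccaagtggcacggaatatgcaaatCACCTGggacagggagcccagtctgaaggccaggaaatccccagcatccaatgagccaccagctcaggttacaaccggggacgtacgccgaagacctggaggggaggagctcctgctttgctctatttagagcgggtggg
Tjp1: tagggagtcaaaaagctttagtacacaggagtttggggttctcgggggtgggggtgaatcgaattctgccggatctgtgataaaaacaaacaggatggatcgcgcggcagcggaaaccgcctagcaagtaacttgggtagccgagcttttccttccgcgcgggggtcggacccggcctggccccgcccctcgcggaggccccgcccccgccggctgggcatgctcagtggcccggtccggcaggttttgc
Epcam: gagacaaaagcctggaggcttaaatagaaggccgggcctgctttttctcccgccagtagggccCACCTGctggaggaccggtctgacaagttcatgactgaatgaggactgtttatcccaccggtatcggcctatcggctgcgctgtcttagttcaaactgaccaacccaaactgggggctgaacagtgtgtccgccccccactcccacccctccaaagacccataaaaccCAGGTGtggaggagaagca
Krt8: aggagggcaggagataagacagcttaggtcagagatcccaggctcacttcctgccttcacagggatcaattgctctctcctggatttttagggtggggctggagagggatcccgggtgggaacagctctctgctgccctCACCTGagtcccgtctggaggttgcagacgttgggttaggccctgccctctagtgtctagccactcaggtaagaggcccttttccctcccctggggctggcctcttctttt
Krt18: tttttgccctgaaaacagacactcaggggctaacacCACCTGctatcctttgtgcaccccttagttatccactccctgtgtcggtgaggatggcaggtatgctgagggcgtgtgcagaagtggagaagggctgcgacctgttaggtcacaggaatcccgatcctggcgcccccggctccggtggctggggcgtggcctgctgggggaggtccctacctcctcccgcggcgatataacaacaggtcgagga
Epcam held 2 such E-boxes, Krt8, Krt18 and Elf3 held 1 each, and Klf4 and Tjp1 held 0. Of the 24 genes of the set with an entry, 13 (54.2%) had at least 1 E-box in these 250 bases, compared with 19.4% of all 27025 symbols in the table. The count was 12 of 21 for genes near 0 and 1 of 3 for present genes. Genes near 0 without such an E-box, among them Cdx2, Vil1 and Muc2, are not shown. The present genes had a median of 22 CG dinucleotides per window, the genes near 0 a median of 8, and all 32851 windows a median of 6. These matches describe letters only, and binding was not measured.

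Of the 8 adhesion and keratin genes, 0 were present in either group. Epcam, the epithelial cell adhesion molecule, was listed at 0 in all 6 libraries. Cdh1, which encodes E-cadherin, was listed at 0.03, 0 and 0 TPM across the pLV-Control libraries, against 0.03, 0 and 0.01 TPM across the pLV-SEMA6A libraries. The 2 groups overlapped, and the difference on the log2(TPM + 1) scale was 0.0048 (exact permutation test, two-sided, p = 1, where 3 libraries against 3 allow no p below 0.1). At these levels no change of Cdh1 RNA could be measured in either direction. Cdh17, the liver-intestine cadherin, was above 0 in all 6 libraries, from 0.06 to 0.25 TPM.

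Keratins 8 and 18 form the filament pair of simple epithelia, and keratins 19 and 20 are added in intestinal cells. Krt8 was at 0.10, 0.38 and 0.38 TPM across the pLV-Control libraries, against 0.34, 0.21 and 0.39 TPM across the pLV-SEMA6A libraries, with overlapping groups. Its partner Krt18 was listed at 0.05 TPM in pLV-Control replicate 2 and at 0 in the other 5 libraries. Krt19 was above 0 in pLV-SEMA6A replicate 1 alone, at 0.11 TPM. Krt20 was listed at 0.04 TPM in 2 pLV-Control libraries, and Krt7, a keratin of ducts and other simple epithelia, at 0.01 and 0.03 TPM in 2 pLV-Control libraries. Both were listed at 0 in pLV-SEMA6A.

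Of the 10 genes of intestinal identity and stem cells, the 2 GATA factors were present and the other 8 were not. Cdx1 and Cdx2, the homeobox factors that set posterior gut identity, and Hnf4a, the nuclear receptor of enterocytes, were listed at 0 in all 6 libraries. Muc2, the gel-forming mucin of goblet cells, was above 0 in all 6 libraries but between 0.02 and 0.04 TPM. Vil1, which encodes the microvillus protein villin, was at 0, 0.02 and 0 TPM across the pLV-Control libraries, against 0.06, 0.04 and 0.12 TPM across the pLV-SEMA6A libraries, without overlap but at trace level. The crypt stem cell genes were each above 0 in 1 library, with Lgr5, an R-spondin receptor, at 0.15 TPM in pLV-Control replicate 1, Ascl2, a factor of the stem cell state, at 0.13 TPM in pLV-Control replicate 2, and Olfm4 at 0.09 TPM in pLV-SEMA6A replicate 2.

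Gata4 and Gata6 are zinc finger factors of endoderm that are also used in heart and other mesoderm. Gata4 was at 10.02, 9.68 and 9.94 TPM across the pLV-Control libraries, against 8.05, 8.07 and 7.54 TPM across the pLV-SEMA6A libraries. All 3 pLV-SEMA6A libraries lay below all pLV-Control libraries. Gata4 fell by 0.29 on the log2 scale (standard error, SE, 0.06, limma adjusted p = 0.0077 over all tested genes). Gata6 was at 3.49, 5.09 and 3.75 TPM across the pLV-Control libraries, against 2.78, 2.20 and 2.63 TPM across the pLV-SEMA6A libraries, again without overlap but with a spread in pLV-Control that rests on replicate 2. Its log2 fold change was −0.52 (SE 0.15, limma adjusted p = 0.028), and without pLV-Control replicate 2 it was −0.39 with a limma adjusted p of 0.070. The limma adjusted p was 0.053 without pLV-Control replicate 3, and 0.080 and 0.061 without pLV-SEMA6A replicates 2 and 3. Its antisense gene Gata6os was at 0 to 0.76 TPM, and since the strand setting is not given in the sources used here, reads of the pair may not have been told apart.

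Among the 8 epithelial regulators, 3 transcription factors were present. Klf4, a factor of terminal differentiation in colon epithelium that is also one of the reprogramming factors, was at 18.2, 20.1 and 20.3 TPM across the pLV-Control libraries, against 26.5, 27.9 and 28.0 TPM across the pLV-SEMA6A libraries. All pLV-SEMA6A libraries lay above all pLV-Control libraries. Klf4 rose with a log2 fold change of 0.47 (SE 0.06, limma adjusted p = 0.00080). Elf3, an ETS factor of epithelia, was at 6.18, 5.25 and 6.93 TPM across the pLV-Control libraries, against 8.73, 8.30 and 8.26 TPM across the pLV-SEMA6A libraries, and its groups did not overlap either. Elf3 rose with a log2 fold change of 0.41 (SE 0.10, limma adjusted p = 0.015, or 0.0502 without pLV-SEMA6A replicate 1). Klf5, the factor of proliferating crypt cells, was at 13.4, 14.8 and 15.0 TPM across the pLV-Control libraries, against 11.8, 14.1 and 14.0 TPM across the pLV-SEMA6A libraries. The groups overlapped, and its log2 fold change of −0.11 (SE 0.08, limma adjusted p = 0.336) did not pass the test.

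The other 5 regulators were near 0. Esrp1 and Esrp2, which set epithelial splicing patterns, reached 0.04 and 0.05 TPM at most. Ovol1 reached 0.03 TPM in 1 library, and Ovol2, a repressor of EMT, was listed at 0 in all 6. Grhl2, which activates junction genes, was above 0 in all 6 libraries, at 0.55, 0.14 and 0.15 TPM across the pLV-Control libraries, against 0.18, 0.18 and 0.13 TPM across the pLV-SEMA6A libraries. The value of 0.55 TPM in pLV-Control replicate 1 was the highest among the 31 genes near 0.

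Of the 7 tight junction and desmosome genes, Tjp1 was the gene present. Tjp1 encodes ZO-1, a scaffold that sits at tight junctions of epithelia and at cell contacts of many other cell types. It was at 49.2, 48.5 and 48.8 TPM across the pLV-Control libraries, against 42.0, 44.8 and 44.0 TPM across the pLV-SEMA6A libraries, the highest level in the set, and 13.1% of protein-coding genes had a higher mean in pLV-Control. The groups did not overlap. Tjp1 fell by 0.16 on the log2 scale (SE 0.04, limma adjusted p = 0.012), and with median-centred libraries the log2 fold change was −0.069 with an adjusted p of 0.169 from limma. Its relative Tjp3 was listed at 0.02 TPM in 1 library and at 0 in 5.

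The sealing claudins were near 0, with Cldn3 at 0.06 TPM and Cldn4 at 0.11 TPM each in a single pLV-Control library, and Cldn7 at 0.22 and 0.06 TPM in 2 libraries. Occludin, from Ocln, was above 0 in all 6 libraries, at 0.03, 0.15 and 0.21 TPM across the pLV-Control libraries, against 0.21, 0.09 and 0.18 TPM across the pLV-SEMA6A libraries. Dsp, which encodes the desmosomal plaque protein desmoplakin, was listed at 0.02 TPM in 1 library of each group. The surface serine protease St14 (matriptase) reached 0.20 TPM, and its inhibitors Spint1 and Spint2 reached 0.14 and 0.04 TPM. Rab25, a GTPase of epithelial recycling endosomes, was at 0.29, 0.29 and 0.10 TPM across the pLV-Control libraries, against 0.22, 0 and 0 TPM across the pLV-SEMA6A libraries. St14, Spint1, Spint2 and Rab25 were present in neither group.

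The 6 present genes were the members that entered the test, since it covers the 12510 genes whose mean reached 1 TPM. With an adjusted p under 0.05 from limma, 2 of the 6 were higher (Klf4 and Elf3) and 3 lower (Gata4, Gata6 and Tjp1) in pLV-SEMA6A, where 47.6% of all tested genes passed (19.5% higher and 28.2% lower). As DEGs, defined by an additional minimum absolute log2 fold change of 0.5, 1 of the 6 was lower (Gata6) and 0 were higher, where 15.9% of all tested genes were DEGs (5.12% higher and 10.8% lower). Gata6 lay just past that minimum at −0.52 and Klf4 just short of it at 0.47. The libraries of the groups did not overlap for 5 of the 6 genes (2 higher and 3 lower), and for 58.5% of all tested genes (23.8% higher and 34.7% lower). The median log2 fold change was −0.13 over the 6 genes and −0.064 over all tested genes. With each library centred on its median, the DEGs were Klf4 and Elf3, both higher, and Gata6 was not called (limma adjusted p = 0.058). Over all genes that centring changed the DEGs from 640 higher and 1347 lower to 1002 higher and 961 lower.

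**Figure D2:**
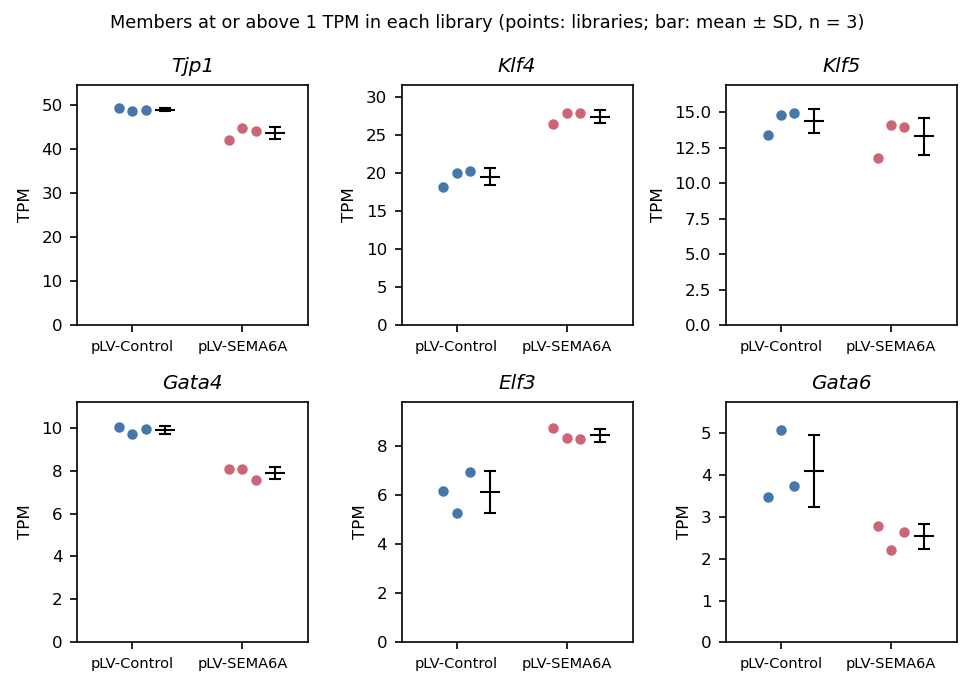
TPM of the 6 present genes in each library (points) with the group mean ± SD (black bars, n = 3), each panel on a linear axis from 0. Klf4 and Elf3 are higher and Gata4, Gata6 and Tjp1 lower in pLV-SEMA6A without overlap, while the Klf5 libraries overlap, with values from 11.8 to 15.0 TPM.

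Without the minimum on the mean, 26 of the 31 genes near 0 could be fitted, the other 5 being listed at 0 throughout. Over all 24518 genes of that fit, 2152 were higher and 3196 lower at an adjusted p under 0.05 from limma. Of the 26, 0 had an adjusted p under 0.05 and 1 had an unadjusted p under 0.05. The largest absolute log2 fold change among them was 0.20, on the log2(TPM + 1) scale that compresses such low levels.

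The families of these genes, grouped by symbol after the values were seen, were read in the same way. Of 34 claudins, 3 were present (Cldn12, Cldn23 and Cldn34c1), none of them in the set. Cldn12, a claudin without the usual binding motif for ZO-1, was at 85.0 ± 5.07 TPM in pLV-Control, against 52.4 ± 5.60 TPM with SEMA6A overexpression (SD, n = 3 each), with a log2 fold change of −0.69 (limma adjusted p = 0.00084). Of 54 keratins, Krt10 and Krt80 were present, and 34 were listed at 0 in all 6 libraries. Krt10 was at means of 3.86 and 3.79 TPM, and Krt80 rose from 3.31 ± 0.21 to 5.69 ± 0.39 TPM (SD, n = 3 each, log2 fold change 0.64, limma adjusted p = 0.0018). Of the 17 KLF factors, 11 were present, and Klf6 was at 47.7 TPM and Klf4 at 19.6 TPM in the mean of pLV-Control. Klf11 was the DEG among the present KLF genes, with a fall of its mean from 9.50 to 5.68 TPM. Of the 5 ELF factors, Elf1, Elf2 and Elf4 were present beside Elf3, and all had higher means in pLV-Control (21.3, 52.6 and 10.7 TPM against 6.12 TPM). Elf1 and Elf2 fell, with log2 fold changes of −0.37 and −0.35 (limma adjusted p = 0.0010 and 0.0012), the opposite direction to Elf3. Of the GATA factors, Gata2, a factor of blood and endothelium among other tissues, was present at 6.91 ± 1.67 TPM in pLV-Control, against 10.4 ± 1.86 TPM with SEMA6A overexpression (SD, n = 3 each). Its log2 fold change was 0.54 (limma adjusted p = 0.044), the opposite direction to Gata4 and Gata6. Of the 3 CDX, 3 GRHL, 3 OVOL and 2 HNF4 genes, 0 were present.

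Other epithelial and intestinal genes, from lists written for the comparison, were also mostly under 1 TPM. Of 25 further epithelial genes 4 were present in both groups (16.0%), and of 36 further intestinal genes 3 (8.33%), with medians of the pLV-Control means of 0.017 and 0 TPM. Among the 6 epithelial genes tested, 1 was a DEG higher and 3 were DEGs lower in pLV-SEMA6A, where 5.12% of all tested genes were higher and 10.8% lower DEGs. Among the intestinal genes, Sox9, a factor of crypt progenitors that is also used in cartilage and other lineages, rose from 12.03 ± 0.092 to 18.9 ± 1.04 TPM (SD, n = 3 each, log2 fold change 0.61, adjusted p = 0.00026 from limma). The other DEG of the 4 intestinal genes tested, Lgals4, which encodes the gut lectin galectin-4, fell from 2.15 ± 0.32 to 0.36 ± 0.41 TPM (SD, n = 3 each), with a log2 fold change of −1.24 (limma adjusted p = 0.0076). Of 12 genes of stratified epithelium 1 was present in both groups, and Krt5 and Krt14, the basal keratins, were listed at 0 in all 6 libraries, while Trp63 reached 0.17 TPM.

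Of 32 further junction and polarity genes, many of them shared by other cell types, 13 (40.6%) were present in both groups. They include the catenins that link cadherins to actin. Ctnna1, for alpha-catenin, rose from 144 ± 5.18 to 206 ± 2.25 TPM (SD, n = 3 each), with a log2 fold change of 0.51 (limma adjusted p = 5.8e-05). Ctnnb1, for beta-catenin, rose from 206 ± 3.12 to 274 ± 6.29 TPM (SD, n = 3 each), with a log2 fold change of 0.41 (limma adjusted p = 6.3e-05). Of the 14 genes tested, 3 were higher and 2 lower at an adjusted p under 0.05, where the shares of all tested genes were 19.5% and 28.2%.

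Mesenchymal markers were high in the same libraries, with 19 of 25 present in both groups and a median of 27.2 TPM over the pLV-Control means, against 0.027 TPM over the 37 epithelial identity genes. Vim, the intermediate filament of mesenchymal cells, was at 907, 894 and 886 TPM across the pLV-Control libraries, against 1386, 1424 and 1411 TPM across the pLV-SEMA6A libraries, where Krt8 did not exceed 0.39 TPM. Vim rose with a log2 fold change of 0.65 (SE 0.02, limma adjusted p = 2.7e-06). That is the opposite direction to the vimentin protein, which the study reported as lower in pLV-SEMA6A cells by immunofluorescence. Why RNA and protein differ was not tested. Cdh2, for N-cadherin, was at 29.6, 28.0 and 30.1 TPM across the pLV-Control libraries, against 35.8, 36.4 and 37.9 TPM across the pLV-SEMA6A libraries, where Cdh1 did not exceed 0.03 TPM. Fn1, for fibronectin, fell from a mean of 1635 TPM in pLV-Control to 1372 TPM in pLV-SEMA6A (log2 fold change −0.25, limma adjusted p = 0.00085). The EMT factors Zeb1, Zeb2 and Snai2, which are known to repress Cdh1, were at means of 27.2, 36.98 and 73.9 TPM in pLV-Control and 23.2, 31.6 and 91.5 TPM in pLV-SEMA6A. Among other EMT factors, Snai1 was at means of 0.65 and 0.67 TPM, and Twist1 fell from 20.7 ± 2.35 to 13.8 ± 1.20 TPM (SD, n = 3 each, log2 fold change −0.55, limma adjusted p = 0.0045). Summed over the 25 markers, a library held 4404 to 4427 TPM in pLV-Control and 7377 to 7545 TPM in pLV-SEMA6A. The largest part of the pLV-SEMA6A sum was S100a4, a calcium-binding protein of motile cells, which rose from 790 ± 21.4 to 3394 ± 87.9 TPM (SD, n = 3 each), while Pdgfrb, a growth factor receptor of mesenchymal cells, fell from 10.5 ± 0.27 to 6.66 ± 0.22 TPM (SD, n = 3 each). The smooth muscle genes Acta2 and Tagln rose with log2 fold changes of 1.57 and 1.32 (limma adjusted p = 4.8e-06 and 3.5e-06). Of all markers, 10 of the 20 tested were higher and 8 lower at an adjusted p under 0.05, beside 19.5% and 28.2% of all tested genes. Of the fibrillar collagen genes on the list, Col3a1 rose from 119 ± 8.05 to 172 ± 3.85 TPM (SD, n = 3 each, log2 fold change 0.53, limma adjusted p = 0.00035), while Col1a1 was at 1.27 and 3.60 TPM and Col1a2 at 0.42 and 0.87 TPM in the mean of each group.

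**Figure D3:**
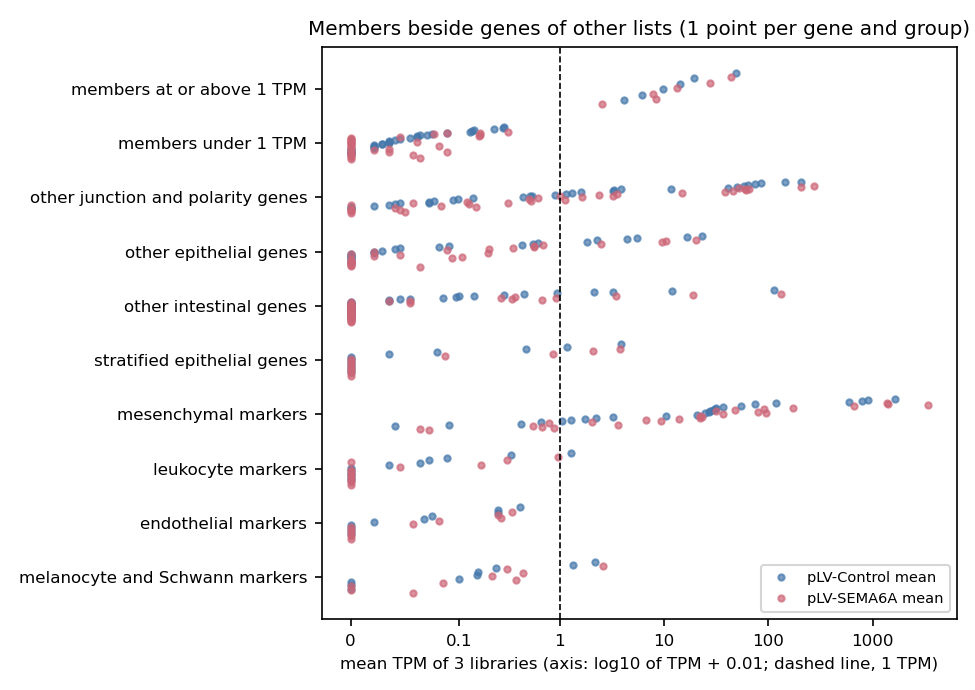
Group means of TPM for each gene (points) of the epithelial identity set, split at 1 TPM, and of the 8 other lists, on a log10 axis of TPM + 0.01 with a dashed line at 1 TPM. The 31 genes under 1 TPM were split off by these same values, so their low position is set by the split. The mesenchymal markers reach 3394 TPM.

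Markers of cell types that the labels do not name served as a guide to how high a trace can be. Leukocyte markers were present for 0 of 12 genes and endothelial markers for 0 of 10, with summed levels of 1.07 to 2.80 and 0.73 to 1.12 TPM per library. Ptprc, the common leukocyte antigen, reached 0.04 TPM, Pecam1 reached 0.15 TPM, and Cdh5 was listed at 0 in all 6 libraries. Of 9 melanocyte and Schwann cell markers, Mitf was present, Sox10 was listed at 0 throughout and Mlana reached 0.09 TPM. All 37 epithelial identity genes, present ones included, had a median of 0.027 TPM over the pLV-Control means. The medians were 0.0067 TPM for the leukocyte and 0.023 TPM for the endothelial markers. Across most of the 37 genes, the RNA of the line went against an epithelial label. Epcam, Cdh1, Krt8, Krt18, Krt19, Esrp1, Grhl2 and Cldn7, which define epithelium, were under 1 TPM in every library. So were Cdx1, Cdx2, Vil1, Cdh17, Krt20 and Hnf4a of intestinal epithelium, Muc2 of goblet cells and Lgr5 of crypt stem cells. These defining genes were picked from the set with earlier results of these data known. The 6 present genes, Tjp1, Klf4, Klf5, Gata4, Elf3 and Gata6, went the other way.

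**Figure D4:**
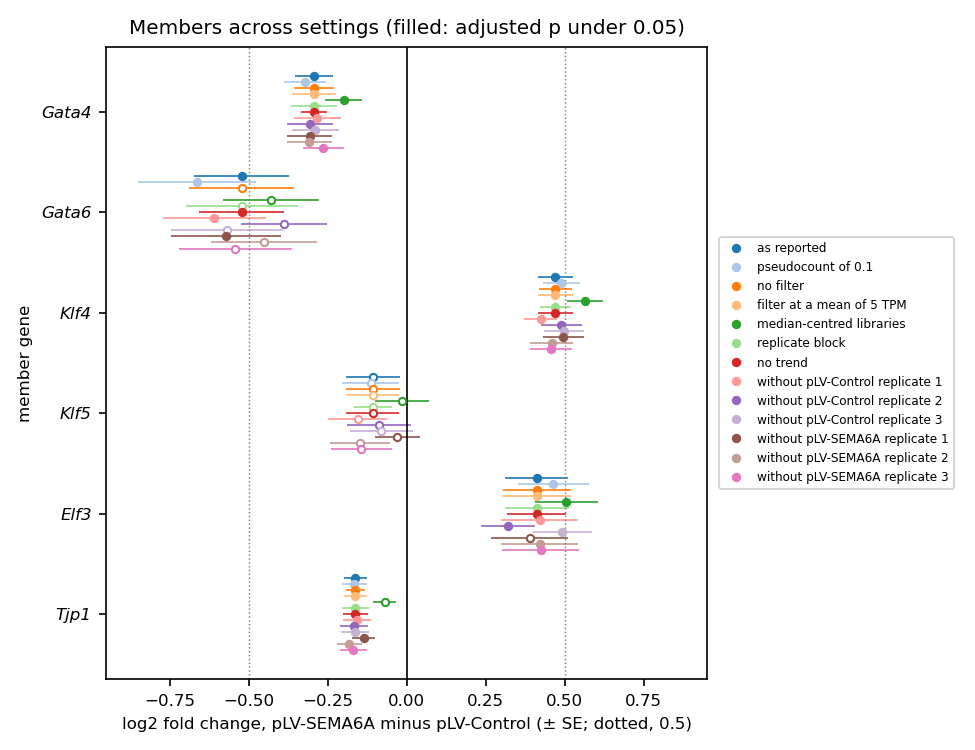
Log2 fold change (± standard error) of the 6 tested genes under each setting of the fit, with filled points where the adjusted p was under 0.05 and dotted lines at 0.5 in each direction. Klf4 and Gata4 stay called throughout, Klf5 under no setting, and Gata6 is not called in 7 of the 11 alternatives that could be fitted.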

How the data were processed

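A table of 53700 genes in 6 SL4 libraries (pLV-Control and pLV-SEMA6A, 3 each) was analysed. The authors deposited TPM with 2 decimals for each library and the mean of each group, and those means were not used. The unit is not named in the table and was taken from the values, which sum to between 977400 and 986444 per library. The submitters' processing notes name HISAT, Bowtie2, RSEM and mm39 without versions or roles, and the annotation is not given in the sources used here. Depth is unknown from TPM, and detection limits were not derived.

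Genes were matched by symbol, and none of the 37 symbols named more than 1 identifier. Gene biotypes came from GENCODE M21 by identifier (97.0% matched). Promoter windows came from RefSeq on GRCm38.p6, matched by symbol, and 24 of the 37 genes had an entry. Differences were tested with limma 3.58.1 (R 4.3.3, trend option, group term alone) on log2(TPM + 1), for genes whose mean reached 1 TPM, with Benjamini-Hochberg adjustment over all of them. The steps were tested on simulated data. The tool that the methods name, DESeq2, needs read counts and was not run.

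The set of genes and the lists were chosen with earlier results of these data known. All 37 genes are named. Of each other list, DEGs with a group mean of at least 10 TPM (at most the 5 with the largest change) and the defining markers were to be named, and examples beyond these, including families by symbol, were chosen after their values were seen. A single gene that this rule names is not reported here. Alternatives were a pseudocount of 0.1, no filter, a mean of at least 5 TPM, median-centred libraries, the replicate block, no trend, other limits for presence and for the fold change, and leaving out each library in turn.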

Additional observations from a re-analysis of the deposited data

How the results depend on the processing

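The count of 6 present genes was 6 at a limit of 0.5 TPM, 5 at 5 TPM, 6 by group means and 6 over the omissions of single libraries. The single DEG of the set, Gata6, was lost without a filter, at a mean of 5 TPM (where it was not tested), with median-centred libraries, with the replicate block and at a minimum log2 fold change of 1, so that 0 genes were lower DEGs. Leaving out a library in turn gave 0 to 1 lower DEGs. The call went without pLV-Control replicates 2 or 3 and without pLV-SEMA6A replicates 2 or 3 (log2 fold change −0.57 to −0.39). Median-centred libraries gave 2 higher DEGs instead of 0, and 1 gene lower at an adjusted p under 0.05 instead of 3. Without pLV-SEMA6A replicate 1, Elf3 had an adjusted p of 0.0502 from limma, so genes higher at an adjusted p under 0.05 numbered 1 to 2 and lower ones 2 to 3 over the libraries left out. The Cdh1 difference, 0.0048 on the log2 scale, ranged from −0.0070 to 0.019 with each library left out, and its sign turned without pLV-Control replicates 2 or 3 (−0.0023) and without pLV-SEMA6A replicate 1 (−0.0070). Of the 48 tested genes of the other lists, 10 were higher and 8 lower DEGs, beside 5.12% and 10.8% of all tested genes. At a mean of 5 TPM the lower ones numbered 4, where 959 of all 9841 tested genes were lower DEGs. At a minimum log2 fold change of 1, 5 higher and 1 lower remained, and the share over all genes was not counted. With each library left out, the lists held 9 to 10 higher and 6 to 8 lower DEGs.

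Libraries with the same replicate number did not deviate together (correlations of −0.079 to −0.023). With 3 libraries per group, these correlations cannot exclude that the numbers pair the samples. With the replicate block, Gata6 had an adjusted p of 0.074 from limma, and among the 6 tested genes the block changed no other call. TPM keeps no depth, so a gene listed at 0 or at a trace cannot be told from one below detection.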
